A study of Mus musculus with 8 samples.

Results

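Splicing factor genes were examined in RNA sequencing libraries of mouse regulatory T cells (Treg), a CD4 lineage that holds immune responses in check. The members are the genes whose names begin with Srsf, Hnrnp, Snrp, Sf3a, Sf3b, Sf1, U2af or Prpf. Of 75 such names among 57180 genes, 5 that hold the pseudogene mark -ps were left out, which leaves 70 members. They comprise 11 SR protein genes (Srsf), 20 hnRNP genes, 13 genes named Snrp for the Sm and other snRNP proteins, 9 subunits of SF3A and SF3B, 4 genes of Sf1 and the U2AF family, and 13 PRPF genes. All 70 were found by identifier in the GENCODE M21 annotation of the mouse GRCm38 (mm10) build, which lists 69 as protein-coding and Snrpert as a processed pseudogene. The cells had been sorted by flow cytometry from different mice, and the series concerns copper and the suppressive capacity of Treg cells. The labels give 8 libraries in 2 groups, 5 chimera WT and 3 chimera KO, called WT-labelled and KO-labelled here. They name neither the gene deleted in the KO, nor how the chimeras were made, nor the strain, age or treatment of the animals, and no library is tied to 1 animal. The p-values therefore describe the scatter among these libraries, which may be technical. The KO label could not be checked against a deleted gene.

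Splicing removes introns from nascent RNA and is carried out by the spliceosome, a machine built from small nuclear RNAs and proteins. A ring of Sm proteins forms the core of the U1, U2, U4 and U5 particles, SF1 and U2AF mark the branch point and the 3′ splice site, SF3A and SF3B hold the U2 particle on the branch point, and PRPF proteins serve the tri-snRNP and the catalytic steps. SR proteins mostly favour the use of an exon and hnRNP proteins often oppose it, and in T cells such factors set, for example, which forms of the phosphatase CD45 are made. Fewer transcripts per cell and a smaller share of cells that express a gene cannot be told apart in such bulk libraries.

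Totals ran from 10.5 to 17.98 mega counts (M) in WT-labelled and from 4.31 to 8.48 M in KO-labelled libraries. Genes with at least 10 counts numbered 8201 to 14009 and 12398 to 14245. The smallest number and the largest total both belonged to WT-labelled replicate 4. All 11 T cell and Treg marker genes looked up, Foxp3 among them, had counts in every library, and their summed level was 7548 to 11144 CPM (the count scaled to a library of fixed size) in WT-labelled and 2589 to 7063 CPM in KO-labelled libraries. Markers of B cells (8 genes, 1242 CPM), of CD8 T and NK cells (9 genes, 1693 CPM) and of myeloid cells (8 genes, 308 CPM) were highest in WT-labelled replicate 4, and erythroid markers (6 genes, 6188 CPM) in WT-labelled replicate 5. In the other libraries the corresponding sums were at most 595, 132, 154 and 24.0 CPM. Foxp3 was lowest in WT-labelled replicates 4 and 5, at 1.24 and 0.853 CPM, against 3.94 to 44.7 CPM elsewhere. The highest T cell and Treg sum, 11144 CPM, belonged to WT-labelled replicate 4, where the listed Cd3 and T cell receptor genes were highest. In that library Cd4 (34.2 CPM) and Ikzf2 (32.1 CPM) were lowest, against 129 to 220 and 543 to 5011 CPM elsewhere. Il2ra was lowest in WT-labelled replicate 5, at 75.3 CPM, against 126 to 679 CPM elsewhere. Protein-coding genes outside the mitochondrial genome held 78.7 to 84.7% of the counts in WT-labelled and 63.9 to 75.3% in KO-labelled libraries. Olfactory and vomeronasal receptor genes, which T cells are not known to use, held 0.0727 to 0.528% and 0.843 to 2.15%. Results are therefore also given with WT-labelled replicates 4 and 5 left out, and with the shallowest libraries, KO-labelled replicates 2 and 3, left out.

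Together the splicing factor genes held a smaller mean share of the counts in the KO-labelled libraries. Their share of all gene counts, in percent, was 1.68, 1.58, 1.54, 1.27 and 1.39 (WT-labelled) and 1.29, 0.857 and 0.608 (KO-labelled). The mean was 1.49 ± 0.161% in WT-labelled (SD, n = 5) and 0.917 ± 0.344% in KO-labelled libraries (SD, n = 3). The groups overlapped, because KO-labelled replicate 1 stood just above WT-labelled replicate 4, whereas KO-labelled replicates 2 and 3 lay below every other library. This share does not depend on the scaling between libraries. Taken over protein-coding counts alone it was 2.09, 1.99, 1.96, 1.5 and 1.70 (WT-labelled) and 1.71, 1.25 and 0.951 (KO-labelled) percent, and the groups again overlapped through KO-labelled replicate 1 and WT-labelled replicate 4. Across the KO-labelled libraries the share followed the order of the summed T cell markers, 7063, 3993 and 2589 CPM, and of the totals, 8.48, 4.57 and 4.31 M. Among the WT-labelled libraries it followed neither order. There, replicate 4 had the highest marker sum (11144 CPM), the largest total (17.98 M) and the lowest share (1.27%). Replicate 1 had the lowest marker sum (7548 CPM) and the highest share (1.68%). The part of marker content and depth in the difference was not tested.

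**Figure D1:**
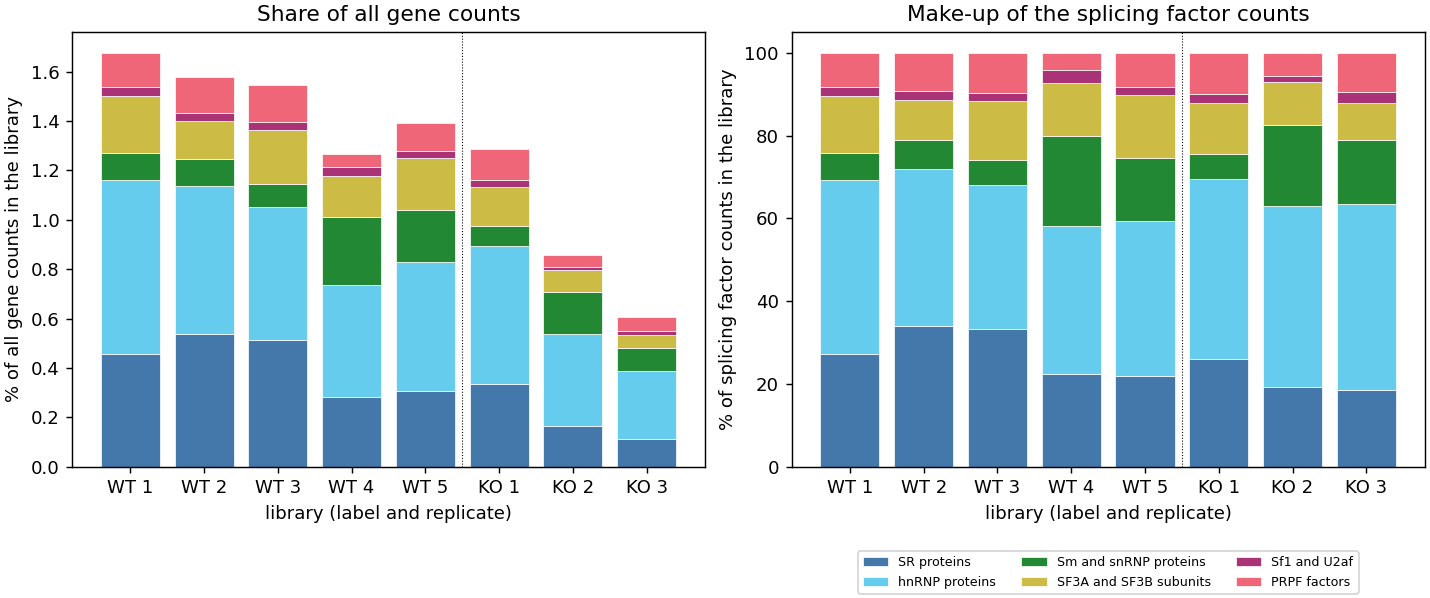
Stacked bars give, for each of the 8 libraries, the percent of all gene counts taken by the 6 groups of splicing factor genes (left) and the percent of the splicing factor counts taken by each group (right). The whole bar on the left is 1.27 to 1.68% in WT-labelled and 0.608 to 1.29% in KO-labelled libraries, and the Sm and snRNP part on the right is largest in WT-labelled replicate 4.

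Gene by gene, nearly all members had lower values in the KO-labelled group, and none passed the test. Of the 70 members, 67 passed the filter on low counts, and 65 of them (97.0%) had a negative log2 change, against 56.8% of all 14755 genes tested and 66.5% of the 10768 protein-coding genes tested. The members' median log2 change was −1.49. For all genes it was −0.42, and for protein-coding ones −0.86. By edgeR's quasi-likelihood test with Benjamini-Hochberg adjustment over all genes, 0 members were lower and 0 higher at an adjusted p under 0.05, and the same held for 0% of all genes in either direction. The smallest adjusted p among the members was 0.325. At an unadjusted p under 0.05, 14 members (20.9%) were lower, against 6.43% of all and 7.94% of protein-coding genes tested, and 0 were higher, against 7.96% and 5.37%. DESeq2 called 24 members lower, against 10% of all and 12.4% of protein-coding genes, and 0 higher, against 6.4% and 4.19%, and gave 5 members no adjusted p. limma-voom called 0 members in either direction, against 0.0271% of all and 0.0371% of protein-coding genes lower and 0.122% and 0.0743% higher. All 3 KO-labelled libraries lay below all 5 WT-labelled ones in normalised CPM (CPM after TMM scaling) for 12 members (17.9%), against 4.49% of all and 5.43% of protein-coding genes, and above them for 0, against 13.2% and 8.42%. The TMM factors, by which library sizes were multiplied, were 1.15, 1.09, 1.08, 0.400 and 0.689 (WT-labelled) and 1.36, 1.49 and 1.32 (KO-labelled). They raise normalised CPM in WT-labelled replicates 4 and 5 against the other libraries. Rankings and overlap of libraries for single genes below are in normalised CPM unless stated, and rest on these factors. The count of 12 members rests on the scaling and the libraries. It was 0 of 67 in CPM without TMM factors (1.67% of all genes), 21 once WT-labelled replicates 4 and 5 were left out (10.5%), 27 without KO-labelled replicate 1 (9.39%) and 20 with KO-labelled replicate 1 as the only KO-labelled library (8.36%).

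**Figure D2:**
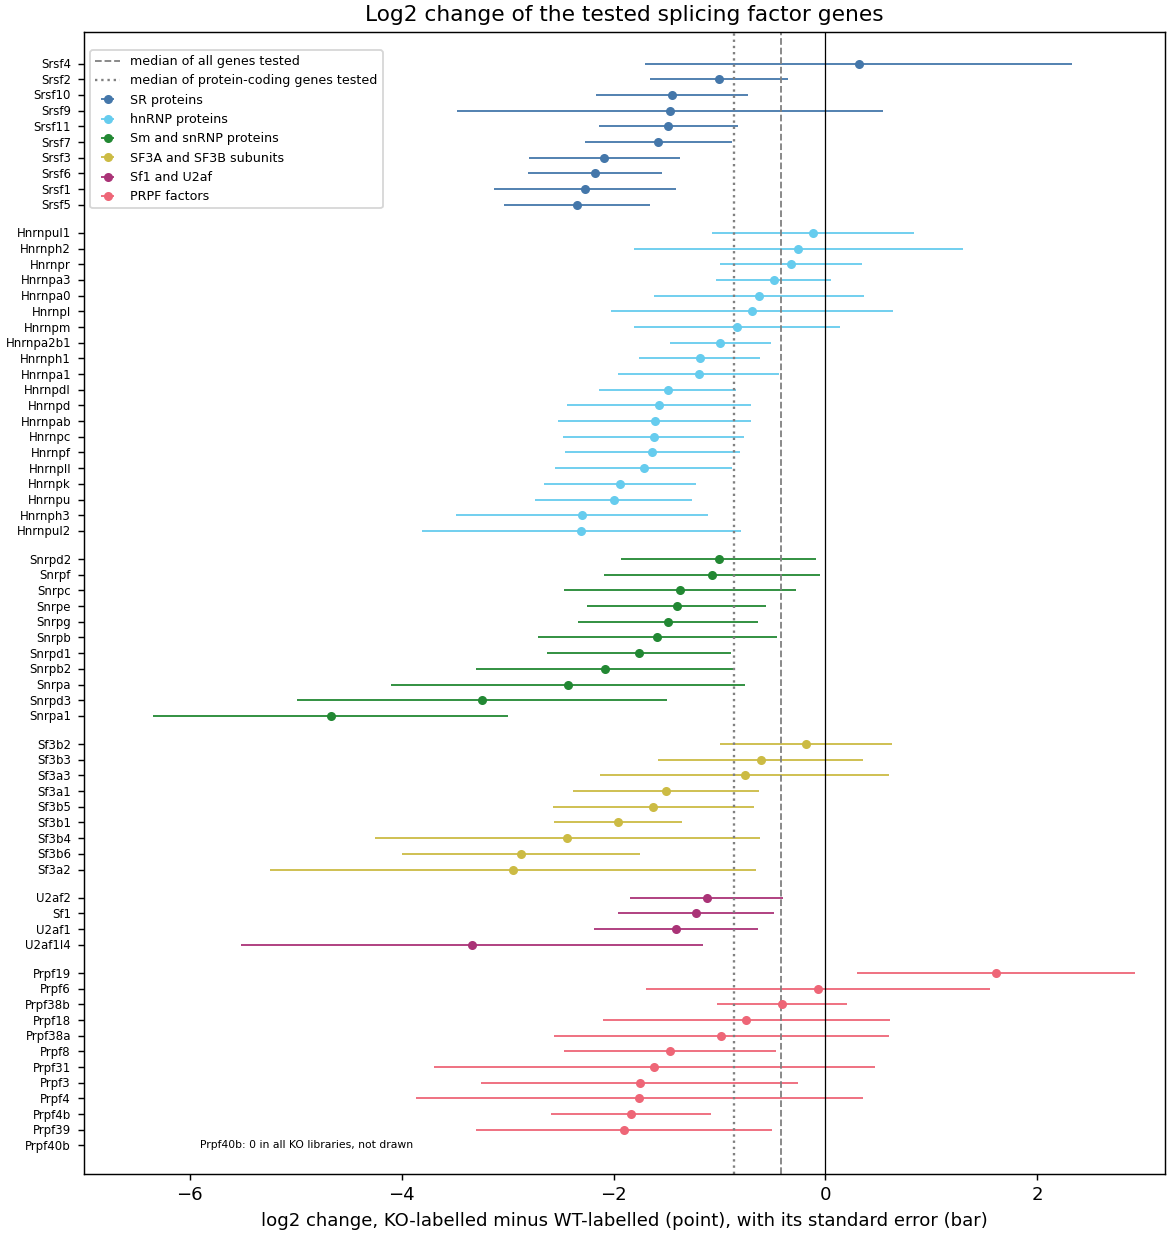
Points give the log2 change, KO-labelled minus WT-labelled, of 66 of the 67 tested splicing factor genes and bars its standard error, with dashed and dotted lines at the medians of all genes (−0.42) and of protein-coding genes (−0.86). All genes shown but Srsf4 and Prpf19 have a negative change, and Prpf40b is named but not drawn because every KO-labelled library was at 0.

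Each KO-labelled library stood low against the median of the WT-labelled libraries. KO-labelled replicate 1 was below that median for 56 of 67 members, replicate 2 for 54 and replicate 3 for 59. Such values were not taken over all genes in each library. The median log2 change between the groups was −0.42 over all genes tested and −0.86 over protein-coding ones. For the members the median log2 difference from the WT-labelled median, after adding 1 normalised CPM, was −0.61 in replicate 1, −1.38 in replicate 2 and −1.66 in replicate 3. Among the WT-labelled libraries it was 0 in replicates 1 and 2, −0.06 in replicate 3, 0.53 in replicate 4 and 0.16 in replicate 5. The median over members of the SD between libraries, on that scale, was 1.28 over the WT-labelled and 1.02 over the KO-labelled libraries. In normalised CPM, which its TMM factor of 0.400 raises, WT-labelled replicate 4 held the highest value of 35 members. Its share of all gene counts held by the members was the lowest of the WT-labelled libraries, at 1.27%. How often this library was highest over all genes was not counted. With WT-labelled replicates 4 and 5 left out, 53 of 66 members were negative and the median was −0.89, against −0.15 over all genes. With library sizes alone, without TMM factors, 52 of 67 were negative and the median was −0.65, while the median of all genes turned to 0.21.

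**Figure D3:**
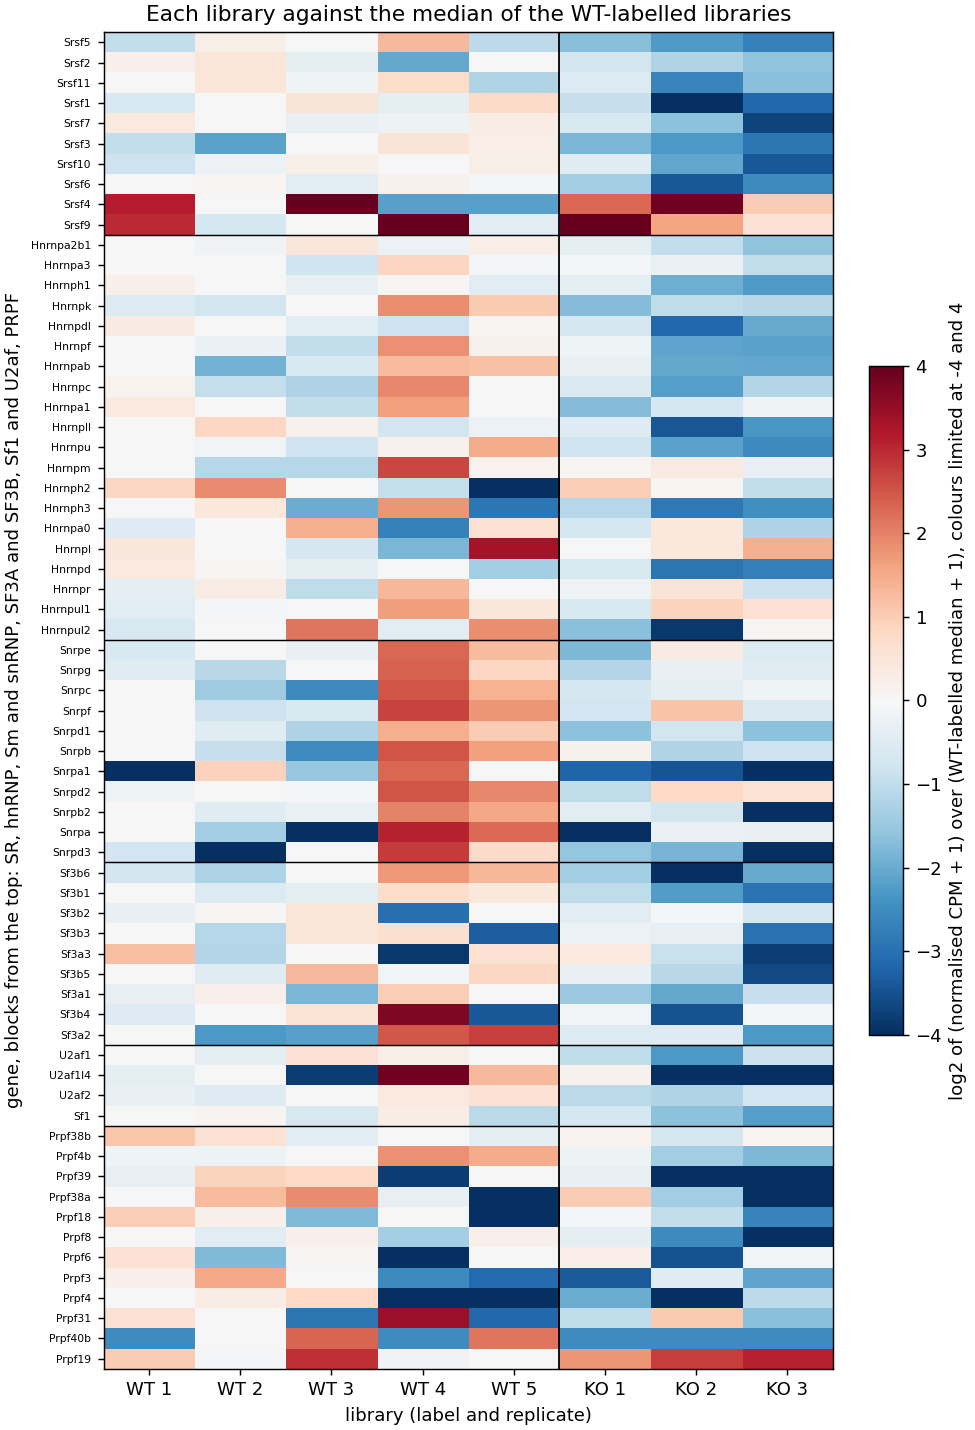
Colours show, for 66 of the 67 tested genes (rows) in the 8 libraries (columns), the log2 of normalised CPM plus 1 over the WT-labelled median plus 1, from −4 (blue) to 4 (red). The KO-labelled columns are mostly blue, and the Sm and snRNP block is red in WT-labelled replicates 4 and 5.

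SR protein genes made up 6 of the 14 members with an unadjusted p under 0.05 (6 of 10 tested, against 6.43% of all genes lower). SR proteins bind exonic enhancers through RNA recognition motifs and recruit spliceosome parts through arginine and serine rich tails. Of 11 genes 10 were tested, 9 were negative with a median of −1.53, and 4 had KO-labelled libraries entirely below the WT-labelled ones, against 4.49% of all genes. The median was −1.5 without WT-labelled replicates 4 and 5 and −0.74 with KO-labelled replicate 1 alone, where all 11 genes were tested and negative.

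The promoters of 3 members are printed because these genes had the smallest unadjusted p among members with a single promoter window in the table used, which had windows for 60 members. They are the 250 bases before the transcript start on the coding strand, 5′ to 3′, from RefSeq on GRCm38.p6, at chr2:162931258-162931507 (plus strand) for Srsf6, chr12:80945249-80945498 (plus strand) for Srsf5 and chr1:55027479-55027728 (minus strand) for Sf3b1. Capitals mark matches, on either strand, to the ETS core CCGGAAG, the CCAAT box CCAAT, the TATA box TATAAA, the GC box GGGCGG and the cAMP response core TGACGT.
Srsf6: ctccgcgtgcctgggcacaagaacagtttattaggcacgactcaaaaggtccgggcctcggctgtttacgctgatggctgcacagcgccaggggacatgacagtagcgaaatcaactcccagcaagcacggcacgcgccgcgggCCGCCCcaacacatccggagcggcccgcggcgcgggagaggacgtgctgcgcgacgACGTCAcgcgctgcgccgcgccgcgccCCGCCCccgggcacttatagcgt
Srsf5: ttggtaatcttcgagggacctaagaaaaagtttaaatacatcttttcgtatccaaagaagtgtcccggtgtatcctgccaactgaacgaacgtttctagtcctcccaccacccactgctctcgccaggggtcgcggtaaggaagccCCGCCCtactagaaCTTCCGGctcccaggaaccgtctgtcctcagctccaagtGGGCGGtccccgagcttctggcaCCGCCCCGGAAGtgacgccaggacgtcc
Sf3b1: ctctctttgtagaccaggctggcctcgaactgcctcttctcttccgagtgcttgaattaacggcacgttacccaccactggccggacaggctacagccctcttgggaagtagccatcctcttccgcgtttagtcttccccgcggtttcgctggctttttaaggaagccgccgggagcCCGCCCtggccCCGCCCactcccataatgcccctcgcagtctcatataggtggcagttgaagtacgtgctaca
The Srsf6 window holds GC boxes and a cAMP response core, the Srsf5 window GC boxes and ETS cores, the last pair of which share bases, and the Sf3b1 window GC boxes only. Over the 81 windows of all members with an entry, 63.0% held a GC box, 46.9% a CCAAT box, 27.2% an ETS core, 17.3% the cAMP response core and 7.41% a TATA box. Over all 32851 windows of the same length these shares were 32.7, 33.8, 6.91, 6.47 and 12.4%. The median GC content was 60.4% and 52.4%. These are matches of letters and show no binding.

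Srsf6 (ENSMUSG00000016921, chromosome 2, 162931528 to 162937121, plus strand), whose protein regulates exon inclusion in many tissues, had normalised CPM of 442, 468, 320.1, 499 and 429.9 (WT-labelled) and 169.8, 41.0 and 75.3 (KO-labelled). On this scale its WT-labelled values were close together and every KO-labelled value was well under the lowest of them (log2 change −2.18, SE 0.63, adjusted p = 0.325, DESeq2 adjusted p = 0.000517). In CPM without TMM factors its groups overlapped, as did those of every tested member. Srsf5 (ENSMUSG00000021134, chromosome 12, 80945504 to 80950507, plus strand), a shuttling SR protein gene with the highest level per length of the family, had 556, 1294, 1094, 2675 and 524 (WT-labelled) and 333, 226 and 166 (KO-labelled). The groups did not overlap, and WT-labelled replicate 4 was far above the other libraries (log2 change −2.34, SE 0.69, adjusted p = 0.325). Srsf1 (ASF/SF2), the founding member of the family, had 221, 335, 482, 261 and 566 (WT-labelled) and 178, 17.5 and 37.0 (KO-labelled). Here KO-labelled replicates 2 and 3 were far below replicate 1, which itself was under the lowest WT-labelled library (log2 change −2.27, SE 0.86, adjusted p = 0.325). Srsf7 had 765, 586, 476, 514 and 713 (WT-labelled) and 384, 187 and 44.0 (KO-labelled), and its groups did not overlap either (log2 change −1.58, SE 0.69, adjusted p = 0.341). Srsf3, the smallest SR protein and one that links splicing to RNA export, had 390.3, 174, 778, 1124 and 936 (WT-labelled) and 218, 158 and 105 (KO-labelled). WT-labelled replicate 2 fell between KO-labelled replicates 1 and 2, so the groups overlapped (log2 change −2.09, SE 0.71, adjusted p = 0.325).

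Srsf11 had 804, 1137, 708, 1336 and 351 (WT-labelled) and 551, 128 and 253 (KO-labelled), with KO-labelled replicate 1 above WT-labelled replicate 5. Srsf2 (SC35), a classical marker of nuclear speckles, had 482, 586, 315, 100.01 and 415 (WT-labelled) and 249, 181 and 136 (KO-labelled). The lowest Srsf2 value of all belonged to WT-labelled replicate 4, and the other 4 WT-labelled values lay above the KO-labelled ones. Srsf4 and Srsf9 were sporadic. Srsf4 had 39.0, 3.52, 84.1, 0 and 0 (WT-labelled) and 21.1, 65.4 and 8.05 (KO-labelled), and its log2 change of 0.31 turned negative without WT-labelled replicates 4 and 5 (−0.37). Srsf9 had 17.8, 0.434, 1.35, 185 and 0.697 (WT-labelled) and 36.0, 5.98 and 2.51 (KO-labelled), and its change of −1.47 turned positive without them (1.19). Srsf10, which represses splicing when dephosphorylated, had 264, 399.8, 553, 468 and 547 (WT-labelled) and 335, 111 and 44.2 (KO-labelled). KO-labelled replicate 1 lay above WT-labelled replicate 1, and the other KO-labelled values lay below all others (log2 change −1.45, SE 0.71, adjusted p = 0.364). Srsf12 was not tested, with 238 counts in WT-labelled replicate 1 and at most 3 in any other library.

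**Figure D4:**
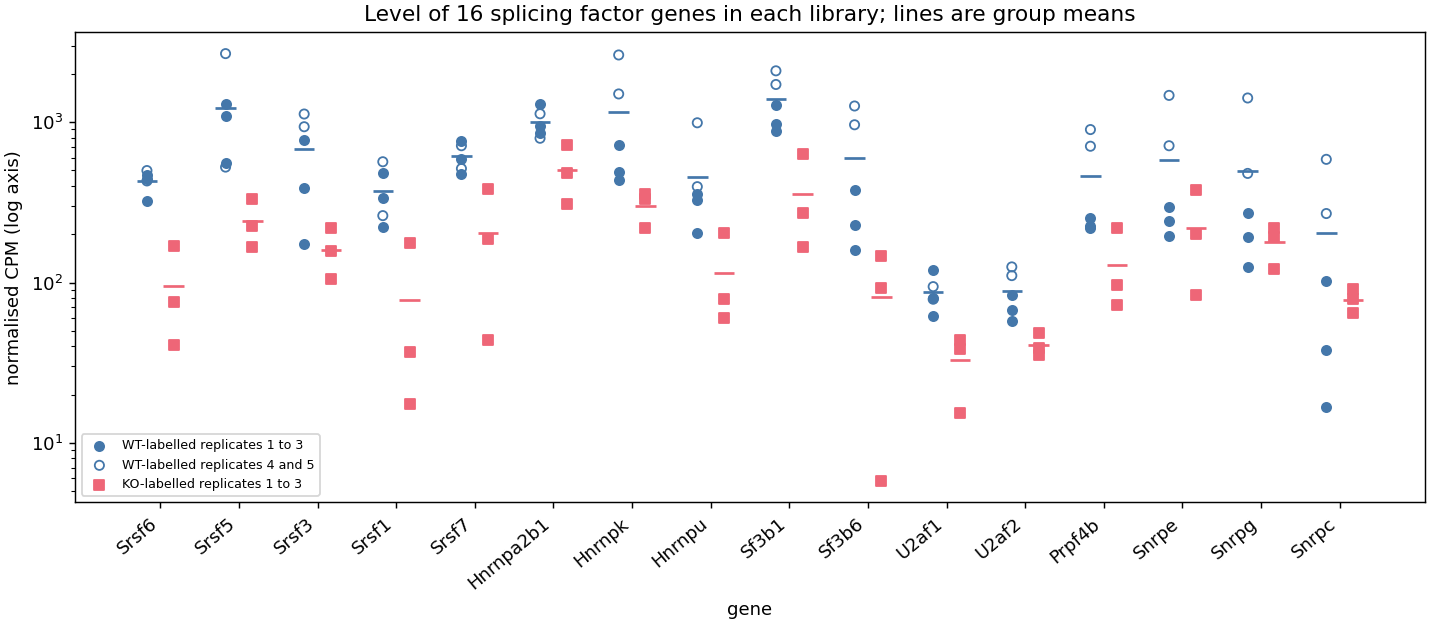
Points give the normalised CPM (log axis) of 16 splicing factor genes in every library, with open circles for WT-labelled replicates 4 and 5 and lines at the group means. The 16 genes include all 12 of the 67 tested members whose groups did not overlap (17.9%, against 4.49% of all genes). Such genes are therefore more common in the figure than among the members, and without TMM factors their number was 0. KO-labelled squares lie below all circles for Srsf6, Srsf5, Srsf1, Srsf7, Hnrnpa2b1, Hnrnpk, Hnrnpu, Sf3b1, Sf3b6, U2af1, U2af2 and Prpf4b, and overlap them for Srsf3, Snrpe, Snrpg and Snrpc.

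The hnRNP genes were all negative, 20 of 20, with a median of −1.34, and 16 of 20 were negative without WT-labelled replicates 4 and 5 (median −0.85). hnRNP proteins coat nascent transcripts and act in splicing, export and stability. At an unadjusted p under 0.05, 3 were lower, against 6.43% of all genes, and 3 had KO-labelled libraries entirely below the WT-labelled ones, against 4.49%. As a share of the splicing factor counts, hnRNP genes held 42.0, 37.8, 34.8, 35.8 and 37.5 (WT-labelled) and 43.7, 43.7 and 45.0 (KO-labelled) percent, and each KO-labelled library was above each WT-labelled one in this make-up. For every other group of members such shares overlapped. Shares within a library are parts of the same whole and not independent, and the mean SR share was 27.7% (WT-labelled) and 21.2% (KO-labelled).

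Hnrnpa2b1 (ENSMUSG00000004980, chromosome 6, 51460932 to 51469894, minus strand), one of the most abundant hnRNPs, had 940.1, 853, 1297, 794 and 1128 (WT-labelled) and 723, 479 and 308 (KO-labelled). In normalised CPM its groups did not overlap, and KO-labelled replicate 1 was the nearest to the WT-labelled range (log2 change −0.99, SE 0.48, adjusted p = 0.358). In TPM (counts scaled by the deposited gene length and library), WT-labelled replicate 4 was instead the lowest of all libraries for Hnrnpa2b1. It stood at 209, against 372 to 998 in KO-labelled libraries. Hnrnpk (ENSMUSG00000021546, chromosome 13, 58391142 to 58403343, minus strand), a binder of C-rich RNA, had 489.8, 437, 723, 2624 and 1499 (WT-labelled) and 218, 355 and 331 (KO-labelled), again without overlap (log2 change −1.94, SE 0.72, adjusted p = 0.325). WT-labelled replicates 4 and 5 carried the highest Hnrnpk values. Hnrnpu (ENSMUSG00000039630, chromosome 1, 178321108 to 178337797, minus strand), also called SAF-A, a scaffold protein that binds RNA and chromatin, had 355, 329, 205, 396 and 991 (WT-labelled) and 203, 79.2 and 59.8 (KO-labelled), with the lowest WT-labelled library only just above KO-labelled replicate 1 (log2 change −2.0, SE 0.74, adjusted p = 0.325). Exons of Hnrnpu overlap Cox20 and those of Hnrnpk overlap Rmi1 on the opposite strand, and the library kit does not mark strand, so reads there cannot be assigned to one gene.

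Hnrnpa3, with Hnrnpa2b1 among the highest hnRNPs per length, had 403, 404, 232, 730.4 and 384 (WT-labelled) and 379.8, 337 and 204 (KO-labelled), overlapping widely. Hnrnph1, a binder of G-rich runs, had 967, 848, 693, 870.4 and 624 (WT-labelled) and 663, 216 and 175 (KO-labelled). KO-labelled replicates 2 and 3 were below all other libraries for Hnrnph1, and replicate 1 was within the WT-labelled range. Hnrnpa1 had 222, 168, 85.5, 522 and 166 (WT-labelled) and 49.9, 106 and 148 (KO-labelled), with its highest value in WT-labelled replicate 4. Hnrnpd (AUF1), which binds AU-rich elements in messenger RNAs, had 162, 129, 95.5, 124 and 47.8 (WT-labelled) and 79.4, 15.5 and 17.8 (KO-labelled), and its relative Hnrnpdl 1005, 797, 577, 452 and 838 (WT-labelled) and 498, 89.6 and 198 (KO-labelled). Both were lowest in KO-labelled replicates 2 and 3. Hnrnpl had 20.2, 14.5, 8.74, 3.37 and 154 (WT-labelled) and 14.2, 19.9 and 40.7 (KO-labelled), most of it in WT-labelled replicate 5. Hnrnpll, which in T cells represses the variable exons of the CD45 gene, had 173, 309, 194, 104 and 147 (WT-labelled) and 121, 15.1 and 33.3 (KO-labelled). KO-labelled replicate 1 was within the WT-labelled range for Hnrnpll and replicates 2 and 3 were below it (log2 change −1.72, SE 0.84, adjusted p = 0.360). Hnrnph2 had 60.1, 127, 33.8, 17 and 0 (WT-labelled) and 67.5, 35.6 and 16.6 (KO-labelled), Hnrnpul1 15.2, 20.0, 20.9, 68.0 and 29.0 (WT-labelled) and 13.4, 39.4 and 32.1 (KO-labelled) and Hnrnpul2 9.71, 15.5, 72.1, 11.2 and 58.3 (WT-labelled) and 4.20, 0.150 and 15.9 (KO-labelled). For Hnrnpul1 the change of −0.12 turned to 0.64 without WT-labelled replicates 4 and 5. The other hnRNP genes (Hnrnpa0, Hnrnpab, Hnrnpc, Hnrnpf, Hnrnph3, Hnrnpm and Hnrnpr) had changes from −2.30 to −0.33.

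The Sm and snRNP genes, which include the Sm ring of the spliceosomal particles, stood high in WT-labelled replicates 4 and 5. All 11 tested genes were negative, with a median of −1.59, but 6 of 11 were negative and the median was −0.10 without those 2 libraries. In normalised CPM, which its TMM factor raises, WT-labelled replicate 4 held the highest value of all 11 genes. Against the WT-labelled median, the median log2 difference of these genes was 2.51 and 1.39 in WT-labelled replicates 4 and 5, 0, −0.83 and −0.62 in replicates 1 to 3, and −1.17, −0.36 and −0.58 in KO-labelled replicates 1 to 3. As a share of the splicing factor counts they held 6.60, 6.88, 6.23, 21.7 and 15.2 (WT-labelled) and 6.02, 19.6 and 15.4 (KO-labelled) percent, which does not depend on scaling. WT-labelled replicates 4 and 5 and KO-labelled replicates 2 and 3 had the larger shares, at 15.2 to 21.7%, against 6.02 to 6.88% in the other 4 libraries. The median deposited length of these genes was 1161 bases, the lowest of the 6 groups, against 2288 for SR and 2728 for hnRNP genes. Over the 67 tested members the log2 change and the log2 length had a Pearson r of 0.10, given as a description. The part of the other cells' markers that peaked in WT-labelled replicates 4 and 5 was not tested.

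Snrpe, a subunit of the Sm ring, had 194, 297, 243, 1468 and 713 (WT-labelled) and 84.1, 375 and 201 (KO-labelled), and its level per length was the highest of all members, at 1086 ± 289 and 994 ± 689.6 TPM (counts scaled by the deposited gene length and library; WT-labelled and KO-labelled mean ± SD). KO-labelled replicate 2 lay above WT-labelled replicates 1 to 3. Snrpg, also of the ring, had 194, 126, 272, 1415 and 479 (WT-labelled) and 121, 219 and 193 (KO-labelled). Snrpc, the U1 protein that helps to read the 5′ splice site, had 102, 38.0, 16.7, 586 and 269 (WT-labelled) and 64.5, 79.3 and 90.5 (KO-labelled), and the KO-labelled values of Snrpc lay within the range of WT-labelled replicates 1 to 3. Snrpd1 had 88.7, 62.7, 37.2, 246 and 179 (WT-labelled) and 28.1, 52.9 and 27.9 (KO-labelled) and Snrpd3 49.4, 0.173, 84.5, 589.8 and 144 (WT-labelled) and 28.4, 22.3 and 4.32 (KO-labelled), the latter at 2 counts in WT-labelled replicate 2. Snrpa1, whose protein binds U2 RNA, had 3.95, 257, 46.9, 667 and 136 (WT-labelled) and 14.0, 11.4 and 0.716 (KO-labelled). It had the most negative log2 change of the group (log2 change −4.67, SE 1.67, adjusted p = 0.325), and WT-labelled replicate 1 lay among the KO-labelled values. Snrpb, which with its splice variant gives the proteins SmB and SmB′, had 74.3, 39.0, 12.3, 428 and 234 (WT-labelled) and 83.9, 31.7 and 41.5 (KO-labelled), and KO-labelled replicate 1 lay above 3 WT-labelled libraries. Snrpn, the imprinted relative of Snrpb used in brain, and the pseudogene Snrpert were not tested, with at most 5 and 1.39 counts in any library, where a count of 0 allows up to 3. Snrpa, Snrpb2, Snrpd2 and Snrpf had changes from −2.43 to −1.01.

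SF3A and SF3B subunits were negative in 9 of 9 genes, with a median of −1.62, and in 8 of 9 without WT-labelled replicates 4 and 5 (median −0.98). At an unadjusted p under 0.05, 2 were lower, against 6.43% of all genes, and the same 2, Sf3b1 and Sf3b6, had KO-labelled libraries below all WT-labelled ones, against 4.49%. Sf3b1 (ENSMUSG00000025982, chromosome 1, 54985169 to 55027481, minus strand), whose protein clamps the branch point duplex, had 1285, 881, 977, 2089.5 and 1718 (WT-labelled) and 633, 273 and 167 (KO-labelled). In normalised CPM the groups did not overlap, with WT-labelled replicates 4 and 5 highest and KO-labelled replicate 3 lowest (log2 change −1.96, SE 0.60, adjusted p = 0.325). In TPM, which uses no TMM factors, WT-labelled replicate 4 was the lowest WT-labelled library, at 154. KO-labelled replicate 1 lay above it, at 244 TPM, so the groups overlapped on that scale. Sf3b6 (p14), the subunit that contacts the branch point adenosine, had 228, 159, 379.6, 1261 and 963 (WT-labelled) and 147, 5.79 and 92.1 (KO-labelled), with the highest values in WT-labelled replicates 4 and 5 (log2 change −2.87, SE 1.12, adjusted p = 0.325). Sf3b5, a small subunit whose deposited length is 3841 bases, had 79.4, 56.2, 196, 73.5 and 141 (WT-labelled) and 64.6, 35.9 and 5.65 (KO-labelled). Sf3b2 had 95.4, 123, 165, 13.8 and 118 (WT-labelled) and 88.9, 111 and 72.3 (KO-labelled), with WT-labelled replicate 4 the lowest of all, and its change of −0.18 turned to 0.32 without TMM factors. Sf3a1, Sf3a2, Sf3a3, Sf3b3 and Sf3b4 had changes from −2.95 to −0.61.

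Genes for recognition of the 3′ splice site had negative log2 changes in 4 of 4 cases, and 2 had no overlap in normalised CPM, against 4.49% of all genes. U2af1 (ENSMUSG00000061613, chromosome 17, 31647081 to 31658892, minus strand), which reads the AG at the end of the intron, had 79.6, 61.8, 119, 94.3 and 78.7 (WT-labelled) and 38.7, 15.4 and 43.8 (KO-labelled). In normalised CPM its groups did not overlap, and the WT-labelled values were close together (log2 change −1.41, SE 0.77, adjusted p = 0.387). In TPM, without TMM factors, WT-labelled libraries ran from 46.6 to 216 and KO-labelled ones from 39.2 to 100, so the groups overlapped. U2af2 (ENSMUSG00000030435, chromosome 7, 5062143 to 5079938, plus strand), which binds the polypyrimidine tract, had normalised CPM of 67.4, 57.9, 83.6, 110.4 and 125 (WT-labelled) and 38.9, 35.4 and 48.3 (KO-labelled). These did not overlap (log2 change −1.12, SE 0.72, adjusted p = 0.437). In TPM, WT-labelled replicate 4 was instead the lowest of all libraries for U2af2, at 24.1, against 39.8 to 48.4 in KO-labelled ones. Sf1, which binds the branch point before the U2 particle, had 132, 144, 83.6, 162 and 61.4 (WT-labelled) and 79.9, 41.6 and 28.1 (KO-labelled), and WT-labelled replicate 5 lay below KO-labelled replicate 1. U2af1l4, a short relative of U2af1 whose exons overlap Psenen on the opposite strand, had 31.3, 40.1, 1.94, 602 and 98.9 (WT-labelled) and 45.0, 0.897 and 0 (KO-labelled) and varied most of the 4. The log2 ratios of U2af1 to U2af2 counts were 0.24, 0.09, 0.51, −0.23 and −0.67 (WT-labelled) and −0.01, −1.19 and −0.14 (KO-labelled).

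PRPF genes were negative in 12 of 13 cases, with a median of −1.46 (10 of 12 and −1.15 without WT-labelled replicates 4 and 5, and 9 of 13 and −0.52 with KO-labelled replicate 1 alone). Prpf4b (ENSMUSG00000021413, chromosome 13, 34875302 to 34906064, plus strand), a kinase of the tri-snRNP, was the only one of 13 without overlap (4.49% of all genes), at 227, 219, 253, 899 and 708 (WT-labelled) and 219, 96.3 and 72.8 (KO-labelled) (log2 change −1.83, SE 0.76, adjusted p = 0.327). KO-labelled replicate 1 lay just below WT-labelled replicate 2. Prpf8, the large protein at the catalytic centre, had 124, 92.7, 142, 47.6 and 143 (WT-labelled) and 93.9, 20.2 and 5.01 (KO-labelled). Prpf38b had 372, 257, 125, 173 and 135 (WT-labelled) and 190.4, 107 and 182 (KO-labelled), with wide overlap (log2 change −0.41, SE 0.61, adjusted p = 0.722). Prpf38a had 34.7, 84.6, 133, 27.4 and 0.418 (WT-labelled) and 71.3, 12.6 and 1.07 (KO-labelled) and Prpf39 137, 322, 298, 11.5 and 171 (WT-labelled) and 139.7, 8.92 and 2.16 (KO-labelled), each under 5 normalised CPM in at least 1 library. Prpf40b had counts of 0, 55.0, 335, 0 and 176 (WT-labelled) and 0, 0 and 0 (KO-labelled), and because every KO-labelled library and 2 WT-labelled ones were at 0 no fold is given. Prpf19, the ubiquitin ligase of its own catalytic-step complex, was the only PRPF gene with a positive change, 1.61, and was named after its values were seen. Prpf3, Prpf4, Prpf6, Prpf18 and Prpf31 had changes from −1.76 to −0.07.

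Ratios of related members within a library were compared for 13 pairs by exact two-sided permutation over 56 splits, whose smallest possible p is 0.0357. No scaling factor enters them. Where a gene of the pair is near 0 counts, the added pseudocount makes the ratio depend on the depth of the library. That applies, among others, to pairs with Srsf12, Snrpn or Prpf40b. The number of pairs with p under 0.05 was 0. Hnrnpl over Hnrnpll had log2 ratios of −3.10, −4.41, −4.46, −4.89 and 0.07 (WT-labelled) and −3.08, 0.39 and 0.29 (KO-labelled), higher in KO-labelled replicates 2 and 3 and in WT-labelled replicate 5 than in the other 5 libraries (exact permutation p = 0.0714, adjusted over the 13 pairs 0.580). Srsf3 over Srsf7 had −0.97, −1.75, 0.71, 1.13 and 0.39 (WT-labelled) and −0.82, −0.24 and 1.25 (KO-labelled), with a difference of 0.16 between the means (exact permutation p = 0.857, adjusted over the 13 pairs 0.929). Hnrnpd over Hnrnpdl differed by −0.11 (exact permutation p = 0.857, adjusted over the 13 pairs 0.929). Hnrnph1 over Hnrnph2 differed by −2.68, and the WT-labelled mean was raised by replicate 5, in which Hnrnph2 had 0 counts (exact permutation p = 0.107, adjusted over the 13 pairs 0.580). The other 9 pairs had adjusted p from 0.58 to 1.

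**Figure D5:**
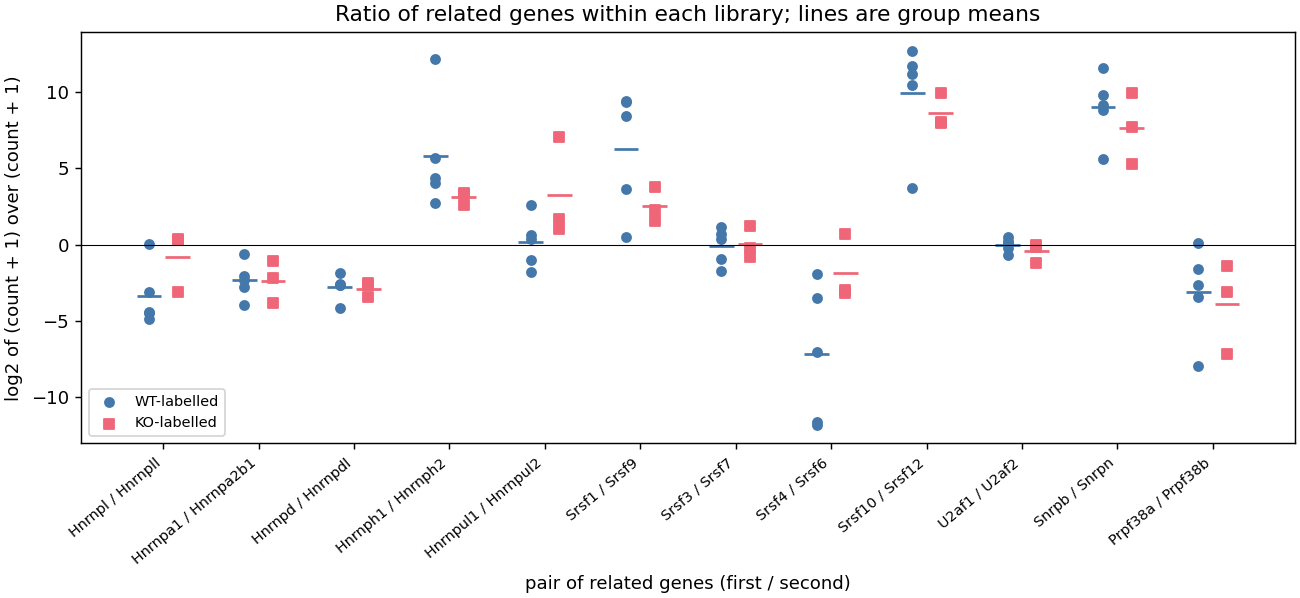
Points give the log2 ratio of counts plus 1 for 12 of the 13 pairs of related splicing factor genes in each WT-labelled (circle) and KO-labelled (square) library, and lines the group means. The groups overlap for every pair shown.

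Most other genes of the splicing pathway also had negative log2 changes. Of 140 genes in 8 lists, counted once each and without members, 135 were tested and 120 were negative. That is 88.9%, against 56.8% of all and 66.5% of protein-coding genes tested. The median of the 135 was −1.40, against −0.42 and −0.86, and 0 passed edgeR's test over all genes in either direction. At an unadjusted p under 0.05, 24 were lower (17.8%, against 6.43% of all genes) and 1 higher (against 7.96%). DESeq2 called 38 lower (28.1%, against 10%) and 1 higher (against 6.4%). In the list of SR protein kinases and a phosphatase, which also holds the member Prpf4b, 9 of 9 tested genes were negative with a median of −1.83. Clk1, which controls SR protein release from speckles, had 956, 1099, 871, 1602 and 1109.6 (WT-labelled) and 504, 175 and 232 (KO-labelled) without overlap of the groups (log2 change −1.89, SE 0.54, adjusted p = 0.325). Dyrk1a had 108, 164, 28.3, 134 and 252 (WT-labelled) and 38.7, 15.1 and 17.2 (KO-labelled). Among other splicing regulators 27 of 27 were negative (median −1.28), and 10 had KO-labelled libraries entirely below, against 4.49% of all and 5.43% of protein-coding genes. Celf2 had 886, 756, 916, 914 and 508 (WT-labelled) and 314, 152 and 76.6 (KO-labelled) and Mbnl1, which drives a switch of splicing during differentiation, 1965, 2492, 1718, 1892 and 2169 (WT-labelled) and 1063, 429 and 227 (KO-labelled). The groups did not overlap for either gene (log2 change −2.14, SE 0.60, adjusted p = 0.325 for Celf2 and log2 change −1.84, SE 0.56, adjusted p = 0.325 for Mbnl1).

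Exon junction complex and SR-related genes were negative in 12 of 13 cases (median −1.80). Magoh had 106, 142, 295, 792 and 268 (WT-labelled) and 49.8, 43.2 and 75.9 (KO-labelled) and its partner Rbm8a 64.8, 105, 147, 369 and 422 (WT-labelled) and 31.8, 48.1 and 7.16 (KO-labelled), both without overlap. In the list of the Prpf19 complex and the catalytic step 23 of 25 were negative (median −1.57), with Bcas2 at 317, 176, 188, 618 and 370.4 (WT-labelled) and 129, 49.5 and 27.3 (KO-labelled) and Ik at 139, 117, 51.2, 72.8 and 154 (WT-labelled) and 6.04, 28.9 and 0.895 (KO-labelled). For snRNP-specific proteins 20 of 24 were negative (median −0.93), the LSM ring and SMN assembly gave 16 of 22 (−1.48) and the minor spliceosome 7 of 9 (−1.17). These are 83.3, 72.7 and 77.8%, against 66.5% of protein-coding genes tested, whose median was −0.86. The last 2 shares and the snRNP-specific median are near those of protein-coding genes. Their leading genes were Ddx42 (−1.65) and Luc7l (−2.41), Strap (−2.91) and Lsm8 (−2.80), and Zcrb1 (−2.11) and Pdcd7 (−5.22), all as log2 changes. Nonsense-mediated decay, which removes the unproductive transcripts that SR genes make to limit themselves, had 9 of 10 negative (median −0.95). Its kinase Smg1 had 342, 328, 409.7, 484 and 372 (WT-labelled) and 253, 80.7 and 87.4 (KO-labelled). Smg8 was the only pathway gene higher at an unadjusted p under 0.05, with counts of 0, 0, 0, 0 and 0 (WT-labelled) and 23.0, 58.0 and 71.0 (KO-labelled). Each of the WT-labelled libraries had 0 counts of Smg8, so no fitted fold is given.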

How the data were processed

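RNA was sequenced from sorted mouse Treg cells, 5 chimera WT and 3 chimera KO libraries, grouped by their titles. The authors deposited estimated counts per gene (expected count, not always whole). Per the labels' protocols libraries were made with the SMART-Seq v4 low-input kit. Per the submitters' processing notes, RSEM, StringTie, HISAT2, fastp and DESeq2 were in use with the mm10 build, with no version or order given. The sources used here do not give the annotation. Deposited gene lengths (bases, another column) gave TPM. The authors' group means were not used. The table held 0 columns of other samples. For 51 of 70 members some counts were not whole (tolerance 0.001), so reads shared with copies may have been split, and 24 have exons that overlap a gene on the opposite strand.

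No pair of libraries agreed within sampling noise (smallest chi-square per degree of freedom 58.5). Counts were rounded. In R 4.3.3, edgeR 4.0.16 tested all 8 libraries by quasi-likelihood without covariates, after filterByExpr (minimum count 10) and with TMM factors, two-sided, with Benjamini-Hochberg adjustment over 14755 genes and a threshold of 0.05. The SE was derived from the log2 change and the F statistic. The procedure was tested on simulated data. The floor for a count of 0 covers counting error only, while the SE also includes the scatter between libraries. Pair ratios used a pseudocount of 1. The alternatives were DESeq2 size factors, DESeq2 1.42.0 as the tool, a floor of 5 mean CPM, no filter, limma-voom 3.58.1 with quality weights, a replicate block, TMM on genes of at least 1000 bases, and left-out libraries; fits without TMM factors and without KO-labelled replicates 2 and 3 were added after seeing the data.

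Members and lists were chosen with earlier results of these data known. Named members were, in each role group, the 3 with the smallest p and the 3 with the highest level per length, plus the tested genes of the related pairs; from each other list, the 2 with the smallest p. The values of 1 member are not reported here. Figures were drawn with matplotlib 3.10.9.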

Additional observations from a re-analysis of the deposited data

Results flagged for a closer look

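Of 71 groups of 5 WT-labelled values examined for 1 value far from the other 4, 10 held such a value. The rule's rate of about 1 in 20 assumes normally distributed values. Normalised CPM and shares were not transformed, and the groups share libraries and scaling factors. The count therefore cannot be set against that rate. The value apart belonged to WT-labelled replicate 4 in 7 cases, to replicate 5 in 2 and to replicate 1 in 1. In replicate 4 these were the normalised CPM of Srsf9 (185), U2af1l4 (602), Snrpd3 (589.8), Snrpg (1415) and Hnrnpul1 (68.0). The shares of the splicing factor counts held by Sf1 and the U2AF genes (3.03%, high) and by PRPF genes (4.16%, low) also stood apart in that library. In replicate 5 they were the normalised CPM of Hnrnpl (154) and Hnrnpu (991). In replicate 1 it was the log2 ratio of Srsf10 to Srsf12 counts (3.74), the library in which Srsf12 had 238 counts.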

How the results depend on the processing

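With 5 against 3 libraries, some of them with under 5 M counts, edgeR called no gene, while DESeq2 called 945 higher and 1476 lower (24 members lower; 1 other pathway gene higher and 38 lower) and limma-voom 18 higher and 4 lower (1 pathway gene higher). Without a filter, with a mean of at least 5 CPM, or without TMM factors, 1 gene was called higher. Over up to 19 settings 34 of 45 named members kept a single sign in each setting that tested them (Prpf40b in 14).

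The median of all genes turned to 0.18 with limma-voom and 0.21 without TMM factors. With at least 5 CPM the log2 changes of Hnrnpul1 (0.33) and Sf3b2 (0.090) turned positive. With limma-voom those of Hnrnph2 (0.070), Hnrnpl (0.37), Hnrnpul1 (0.53), Snrpc (0.40) and Srsf9 (1.21) did, and without TMM factors those of Hnrnpa3 (0.33), Hnrnph2 (0.14), Hnrnpl (0.13), Hnrnpul1 (0.86), Prpf38b (0.12), Sf3b2 (0.32) and Srsf9 (0.077). Without WT-labelled replicates 4 and 5 Hnrnpl (0.82), Hnrnpul1 (0.64), Snrpb (0.34), Snrpc (0.63) and Srsf9 (1.19) were positive, Srsf4 was −0.37 and the Hnrnpa1 to Hnrnpa2b1 log2 ratio differed by 0.42. Without WT-labelled replicates 2 and 3 Hnrnph2 (0.89), Prpf38a (0.70) and Sf3b2 (0.35) were positive. Without KO-labelled replicates 2 and 3 Hnrnph2 (0.43) and Prpf38a (0.27) were positive and Srsf4 was −0.34. The cause was not tested.

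Members with all KO-labelled below all WT-labelled values numbered 0 without TMM factors, 21 once WT-labelled replicates 4 and 5 were left out, 20 without KO-labelled replicates 2 and 3, and 13 to 27 with each library left out in turn. Members lower at an unadjusted p under 0.05 then numbered 3 to 22. The difference in the share of counts, −0.575 points, was −0.76 to −0.42 with each library left out. Without KO-labelled replicates 2 and 3 it was −0.205, and by group −0.0853 (SR), −0.00136 (hnRNP), −0.0830 (Sm and snRNP, −0.0476 with all libraries and 0.00765 without WT-labelled replicates 4 and 5), −0.0368 (SF3), −0.00507 (Sf1 and U2AF) and 0.00663 (PRPF).

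With each library left out in turn the log2 change ran from −0.46 to 0.41 for Hnrnpul1, −0.92 to 0.53 for Hnrnph2, −1.26 to 1.17 for Hnrnpl, −0.81 to 1.58 for Srsf4, −3.33 to 1.55 for Srsf9 and −0.46 to 0.066 for Sf3b2. The difference in log2 ratio ran from −0.67 to 0.73 for Hnrnpa1 to Hnrnpa2b1, −0.45 to 0.18 for Hnrnpd to Hnrnpdl, −0.43 to 0.60 for Srsf3 to Srsf7 and −2.03 to 0.85 for Prpf38a to Prpf38b.

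Same-numbered libraries of the groups shared only a number: their deviations correlated at 0.02, 0.02 and 0.05 for numbers 1 to 3, and not every library correlated best with its own number. With the replicate block edgeR called 0 genes, the median of the members was −1.09 and that of all genes 0.077. Under the block Hnrnpl (0.70), Hnrnpul1 (0.47), Snrpb (0.53), Snrpc (0.96) and Srsf9 (1.80) were positive and Srsf4 was −0.44.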
